A study of Homo sapiens with 18 samples.

Results

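The genes described here were raised by heat and fell again within the recovery hour. They were found in SW620 cells, an established human colon cancer line, by RNAseq. In the 3 scramble groups, CPM, the count of a gene scaled to the column sum of its library, was averaged by group. A gene was a member where its HS mean was at least 5 CPM, its HS mean was at least 1.7 times the Ctrl mean, and its HS+REC mean was at most 0.67 times the HS mean. Of 26485 gene symbols, 115 met these limits. Symbols starting with HSP, DNAJ, BAG, HIST, KLF, DUSP, FOS, JUN, EGR or IER were left out, which removed 15 genes (among them HSPA6, FOS, EGR1 and DUSP1) and left 100 members.

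The study asked how cells respond to heat when LONP1, the mitochondrial Lon protease, is depleted. Cells received a scramble siRNA or siRNA against Lonp1 (siLonp1) and were kept at 37 °C (Ctrl), exposed to 42 °C for 1 h (HS), or exposed to 42 °C for 1 h and returned to 37 °C for 1 h (HS+REC). Each of the 6 groups held 3 libraries, and the methods of the study describe them as independent biological replicates of this 1 line. All 6 groups were transfected cells, so that none shows the line without siRNA, and the siRNA sequence used for RNAseq is not given in the sources used here. The scramble libraries chose the members, so their values are a description with no test. The 9 siLonp1 libraries were not used by the rule, and every comparison tested is between siLonp1 groups. The model was fitted over all 18 libraries, so the scramble libraries enter the filter, the scaling and the estimate of the spread.

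Heat activates HSF1, the factor that drives the chaperone genes, and at the same time slows or stops the transcription and splicing of many other genes. A separate early wave consists of stress and immediate early genes, which are switched on without new protein synthesis. Many of their mRNAs are short-lived, often because AU-rich elements in the 3′UTR recruit decay factors such as ZFP36, and their products include the feedback inhibitors that end the signal. mRNAs of zinc finger transcription factors, the largest class of human transcription factors, are also known to turn over fast as a class.

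Between 30815860 and 47279297 counts were assigned per library (median 40847024.5). LONP1 was at 233 ± 5.73 CPM (SD, n = 3) in Ctrl scramble and at 20.5 ± 1.79 in Ctrl siLonp1. After HS it was at 222 ± 17.9 and 11.3 ± 0.147, and after HS+REC at 217 ± 18.9 and 25.7 ± 1.703 CPM. Of 12 colon epithelial markers, 10 had a mean above 1 CPM, KRT20 had a mean below 1 CPM over all libraries and CDX1 had no count in any library. Of 10 markers of other cell types, 2 (CD68 and COL1A1) had a mean above 1 CPM, and 6 (PTPRC, CD3E, COL1A2, DCN, ALB and MYH11) had a mean below 0.1 CPM over all 18 libraries, with single libraries above it for some. The summed level of these 10 rose with the conditions in siLonp1, from 24.5 to 27.0 CPM in Ctrl libraries, from 29.7 to 35.6 in HS and from 45.5 to 49.1 in HS+REC, and COL1A1 carried much of the step (9.06 to 10.1, 12.8 to 18.2 and 30.5 to 32.8 CPM). Their part in the results was not tested. In bulk RNA a change in the number of expressing cells and a change of RNA per cell cannot be told apart.

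By scramble values, HS/Ctrl of the 100 members ran from 1.72 to 8.55 with a median of 2.03, and HS+REC/HS from 0.162 to 0.66999 with a median of 0.510. Just inside the heat limit were RNF111 (1.72), TMC8 (1.73) and FGF9 (1.73), and just outside were ZSCAN9 (1.696), PDXDC2P (1.68) and ZNF850 (1.67). Just inside the recovery limit were MTF1 (0.66999), ZNF408 (0.664) and ZNF184 (0.660), and just outside were HBEGF (0.676), RSBN1 (0.676) and NUFIP2 (0.677). In every member each HS scramble library lay above each Ctrl and each HS+REC scramble library, which the rule largely fixes. HS means of members ran from 5.09 to 872 CPM. Together the members took between 0.203% and 0.214% of the counts in Ctrl scramble libraries, between 0.494% and 0.517% in HS, and between 0.243% and 0.259% in HS+REC.

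Members fell into 7 groups by what their products do, set up after the members were known. They were 35 genes with zinc finger symbols (29 ZNF genes, ZBTB6, ZBTB34, ZBTB49, ZKSCAN2, ZKSCAN4 and ZFP14), 21 other genes of transcription and chromatin, 10 genes of mRNA turnover and poly(A) tails, 2 genes of splicing, 16 genes of signalling and stress, 3 other symbols (the snoRNA genes SNORD14C and SNORD14D, and BTN2A3P, which GENCODE lists as lncRNA) and 13 remaining members, among them LRP5L, which GENCODE lists as a pseudogene. The heat map shows each library relative to the Ctrl mean of its own siRNA.

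**Figure D1:**
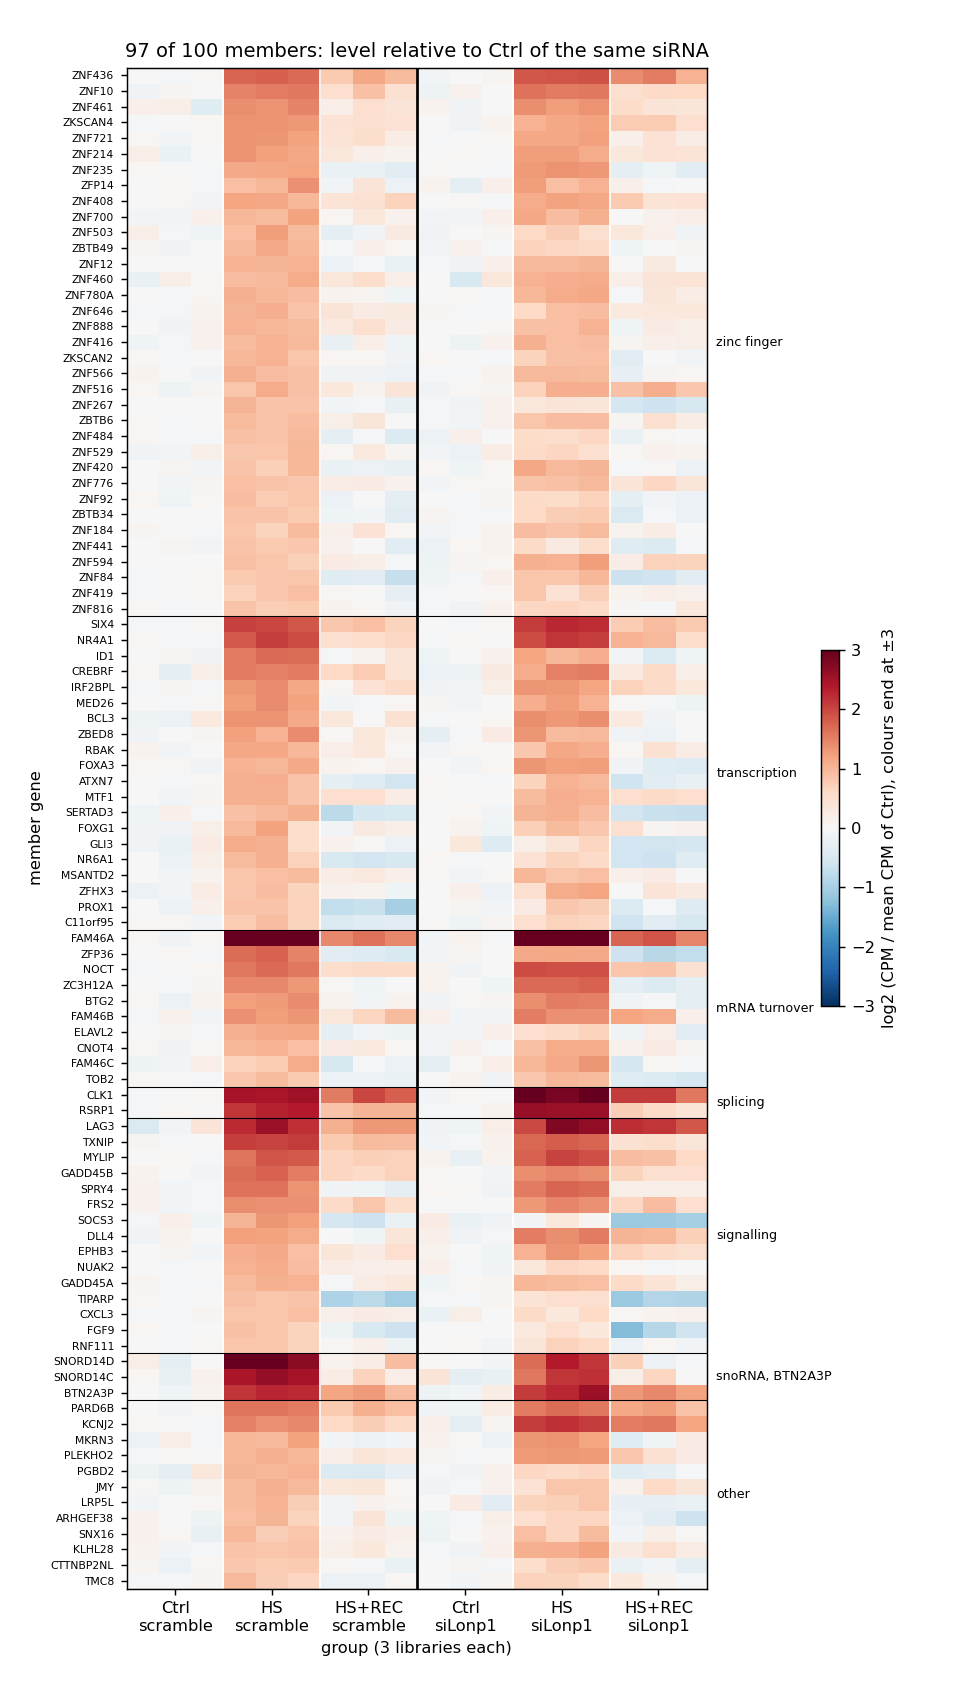
Heat map of 97 of the 100 members (rows, grouped by function and ordered by scramble HS/Ctrl) in the 18 libraries (columns, 3 for each of 6 groups), as log2 of CPM over the mean CPM of Ctrl with the same siRNA. HS columns are red in both arms for most rows (SOCS3 in HS siLonp1 is among the exceptions), and HS+REC columns are pale or blue for most rows, with FAM46A, CLK1, LAG3 and KCNJ2 among those still red in HS+REC siLonp1.

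Sequences of members that carry 2 features described further on are given first. SNORD14C and SNORD14D are C/D box snoRNAs, guides for methylation of ribosomal RNA, and they lie within HSPA8, the constitutive HSP70 gene, on the minus strand of chromosome 11 (hg38). SNORD14C is at chr11:123059335-123059422 and SNORD14D at chr11:123058909-123058995. They are shown because they are the snoRNA genes among the members and close copies, identical at 70 of 90 aligned positions (77.8%). Capitals mark TGATGA, the core of box C, and CTGA, the core of box D, which was found as these letters in SNORD14C only. The sequences are from GENCODE transcripts of hg38.
SNORD14C: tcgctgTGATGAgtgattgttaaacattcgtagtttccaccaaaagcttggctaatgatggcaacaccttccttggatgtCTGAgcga
SNORD14D: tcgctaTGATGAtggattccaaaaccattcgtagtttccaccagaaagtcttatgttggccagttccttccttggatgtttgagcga

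AU-rich nonamers in the 3′UTR are shown for 8 members, ZFP36 first since it is itself a protein that binds such elements. Each is 29 bases of the GENCODE transcript (hg38) around the first nonamer, with TTATTTATT in capitals. ZFP36 lies on chromosome 19 and its site is at chr19:39409196-39409224 on the plus strand. With their strands, the other sites were CXCL3 at chr4:74036773-74036801 (minus), TIPARP at chr3:156705515-156705543 (plus), KCNJ2 at chr17:70178973-70179001 (plus), NUAK2 at chr1:205302895-205302923 (minus), ZBTB6 at chr9:122908390-122908418 (minus), ZNF461 at chr19:36638558-36638586 (minus) and ZNF566 at chr19:36448105-36448133 (minus).
ZFP36: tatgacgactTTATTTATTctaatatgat
CXCL3: atgtcagttgTTATTTATTcaaattatct
TIPARP: aggattctatTTATTTATTtacgtttgat
KCNJ2: tgttcttctgTTATTTATTtcagcatgga
NUAK2: atttttatttTTATTTATTtatttatttt
ZBTB6: attatttataTTATTTATTcctgttcagt
ZNF461: tcattagtatTTATTTATTtaaataatcc
ZNF566: tatcagttcaTTATTTATTgctgatcatt

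Over the members as a whole, the heat response was also present in the siLonp1 libraries. HS raised 56 of the 100 members by more than 2-fold at an FDR of at most 0.05 (quasi-likelihood test of edgeR, adjusted by Benjamini-Hochberg over 12832 genes), against 3.42% of all genes tested. At any fold, 98 were raised, against 20.2% of all genes. None was lowered, against 22.1% of all genes, and none was below Ctrl at an unadjusted p under 0.05. All 100 passed the filter on low counts, also when only siLonp1 libraries were considered. With the HS libraries of both arms set aside, 99 of the 100 passed it. The member that passed only through HS libraries, where the rule needs it to be high, stays in these counts. The median log2 fold change was 1.08 over the members and 0.00 over all genes, and the members ran from 0.16 to 3.37. In 98 members each HS siLonp1 library was above each Ctrl siLonp1 library, against 21.2% of all genes.

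In HS+REC against HS, 34 members were lowered by more than 2-fold in siLonp1, against 0.74% of all genes tested, and 97 at any fold, against 15.6%. None was raised, against 16.3% of all genes, and none lay above HS at an unadjusted p under 0.05. The median log2 change was -0.85 over the members and -0.01 over all genes, with a range from -2.02 to -0.01. This comparison and the one before share the HS siLonp1 libraries. By both tests together, 26 members were called at more than 2-fold (0.374% of all genes) and 95 at any fold (5.84% of all genes). HS+REC libraries were all below HS libraries in 96 members, against 24.3% of all genes.

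Recovery left the members on both sides of their Ctrl level. In HS+REC against Ctrl, 44 members were still higher in siLonp1 at an FDR of at most 0.05 at any fold, against 24.6% of all genes, 14 were lower, against 26.6%, and 42 passed in neither direction. By more than 2-fold, 8 were higher (LAG3, CLK1, FAM46A, KCNJ2, ZNF436, BTN2A3P, PARD6B and ZNF516) and none was lower. The median log2 difference was 0.22, with a range from -0.99 to 2.16. The members' share of all counts was between 0.232% and 0.236% in Ctrl siLonp1, between 0.478% and 0.512% in HS and between 0.250% and 0.277% in HS+REC, so that the HS+REC libraries lay just above the Ctrl libraries and far under the HS libraries. The comparison shares libraries with both others.

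**Figure D2:**
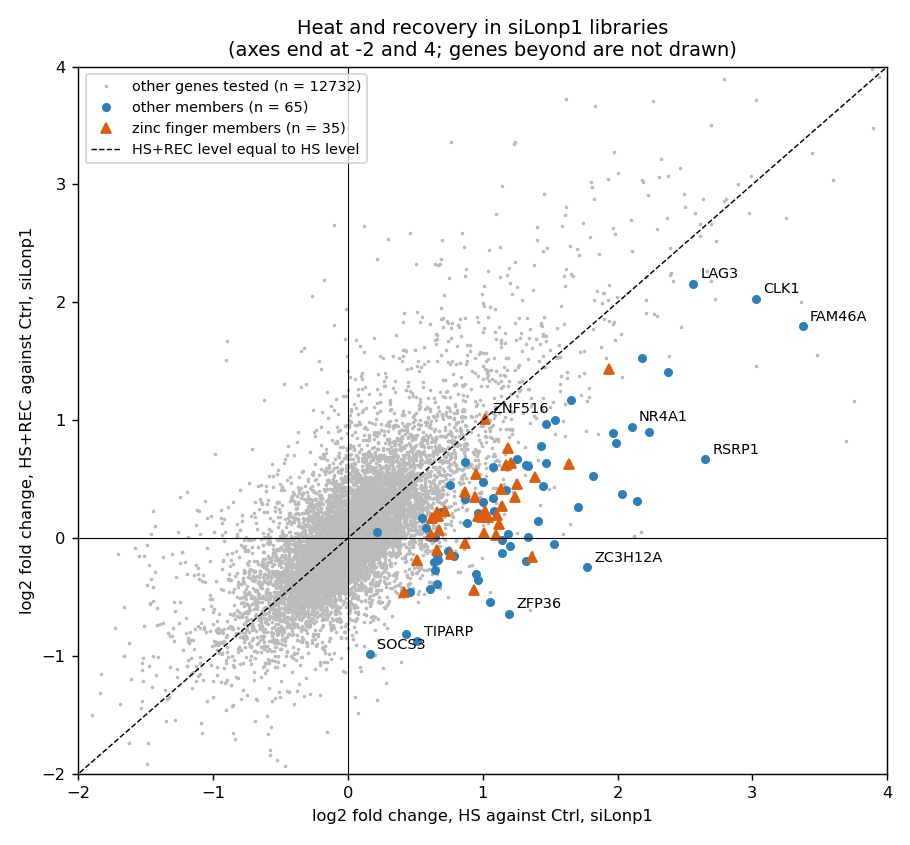
Each point is a gene in the siLonp1 libraries, with the log2 fold change of HS against Ctrl on the x axis and of HS+REC against Ctrl on the y axis. Members (triangles for the 35 zinc finger genes, circles for the other 65) lie to the right of 0 and under the dashed line of equal HS and HS+REC level, except ZNF516, which is near that line, and they spread over both sides of y = 0.

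The 10 members grouped by hand under mRNA turnover and poly(A) tails were all raised by HS in siLonp1 and all lowered in HS+REC against HS. So were 98 and 97 of all 100 members, against 20.2% and 15.6% of all genes. By more than 2-fold, 8 were raised and 7 were lowered, and the medians were 1.33 and -1.29 on the log2 scale. Over all members these counts were 56 and 34, against 3.42% and 0.74% of all genes. Against Ctrl, 4 were higher in HS+REC, 3 lower and 3 neither (44, 14 and 42 of all members). Members were chosen for this course, so the counts of this and the other groups are a description. ZFP36 encodes tristetraprolin, which binds AU-rich elements and brings the deadenylase to mRNA. ZFP36 was at 11.9, 12.2 and 11.6 CPM in Ctrl scramble, at 38.1, 40.3 and 33.2 in HS and at 9.33, 9.14 and 8.61 in HS+REC. With siLonp1 it was at 13.4, 15.1 and 14.3 CPM, then 31.2, 32.0 and 31.6, then 9.33, 8.02 and 8.59. In both arms the 3 HS libraries stood above all others, and the HS+REC libraries lay under the Ctrl libraries. The siLonp1 changes were 1.20 by HS (log2, SE 0.08, adjusted p = 7.81e-12, edgeR) and -1.84 from HS to HS+REC (SE 0.08, adjusted p = 2.33e-14), and HS+REC was under Ctrl by -0.64 (SE 0.08, adjusted p = 5.42e-07).

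ZC3H12A, which encodes the endoribonuclease Regnase-1, followed a similar course. In siLonp1 it was at 16.7, 15.7 and 14.03 CPM in Ctrl, at 50.2, 50.4 and 52.7 in HS and at 12.6, 11.7 and 12.7 in HS+REC. In scramble the values were 15.04, 14.5 and 15.9, then 41.0, 41.4 and 37.6, then 15.5, 13.9 and 15.1 CPM. HS+REC libraries lay under all Ctrl libraries in siLonp1 and overlapped them in scramble. The siLonp1 log2 changes were 1.77 (SE 0.07, adjusted p = 1.9e-15, edgeR) and -2.02 (SE 0.07, adjusted p = 1.13e-15), the deepest fall of any member in siLonp1. The difference of HS+REC from Ctrl, -0.25 (adjusted p = 0.00907), became -0.18 (adjusted p = 0.0742) without Ctrl siLonp1 replicate 1.

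BTG2 and TOB2, antiproliferative proteins that bind the CCR4-NOT deadenylase, also rose and fell. BTG2 was at 7.17, 7.97 and 8.16 CPM in Ctrl siLonp1, at 20.3, 22.6 and 22.1 in HS and at 7.20, 7.64 and 6.41 in HS+REC, with log2 changes of 1.53 and -1.58 (SE 0.09 for both, adjusted p = 3.12e-12 and 5.13e-12, edgeR). In scramble its level was 12.3, 10.6 and 12.9 in Ctrl, 28.2, 28.9 and 32.1 in HS and 12.9, 11.3 and 12.8 in HS+REC. In both arms HS+REC libraries overlapped Ctrl. TOB2 was at 78.9, 84.8 and 73.2 CPM in Ctrl siLonp1, at 139, 157 and 152 in HS and at 61.4, 59.3 and 54.5 in HS+REC, under every Ctrl library, with log2 changes of 0.96 and -1.32 (adjusted p = 3.77e-11 and 5.54e-13, edgeR). CNOT4, an E3 ubiquitin ligase that associates with CCR4-NOT, had log2 changes of 1.09 and -0.85. NOCT, nocturnin, was at 16.5, 14.2 and 15.4 CPM in Ctrl siLonp1, at 59.4, 59.0 and 58.6 in HS and at 27.3, 27.9 and 21.1 in HS+REC, so that its HS+REC libraries stayed above Ctrl (0.81 on the log2 scale, adjusted p = 4.28e-08, edgeR).

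FAM46A, FAM46B and FAM46C (now TENT5A, TENT5B and TENT5C) encode poly(A) polymerases of the cytoplasm, which lengthen tails. FAM46A had the largest rise of any member in siLonp1. Its level was 11.1, 12.7 and 11.6 CPM in Ctrl siLonp1, 108, 125 and 121 in HS and 39.5, 43.9 and 32.8 in HS+REC. In scramble it was 16.1, 14.2 and 15.7, then 122, 125 and 122, then 42.0, 47.6 and 41.6 CPM, so that in both arms the 3 conditions did not overlap. Its siLonp1 log2 changes were 3.37 by HS (SE 0.10, adjusted p = 1.87e-18, edgeR), -1.58 from HS to HS+REC (SE 0.09, adjusted p = 1.6e-12) and 1.80 for HS+REC against Ctrl (SE 0.09, adjusted p = 1.81e-13). FAM46B rose by 1.47 (adjusted p = 1.22e-06) and FAM46C by 1.20 (adjusted p = 5.67e-07) on the log2 scale. FAM46C fell by 1.27 in recovery (adjusted p = 4.57e-07). The recovery change of FAM46B, -0.50 (adjusted p = 0.0324, edgeR), did not hold without single libraries: the adjusted p was 0.0983, 0.0575 and 0.0532 without HS siLonp1 replicate 1, 2 and 3, and 0.222 (log2 change -0.24) without HS+REC siLonp1 replicate 3.

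The promoter of FAM46A, on the minus strand of chromosome 6, is shown with those of GADD45B (chromosome 19, plus strand) and ID1 (chromosome 20, plus strand), since these 3 members each hold TATAAA, in capitals, close upstream of the annotated start. Each window covers 250 bases before to 50 bases after the start (RefSeq, GRCh38.p14), at chr6:81752632-81752931 for FAM46A, chr19:2475877-2476176 for GADD45B and chr20:31605039-31605338 for ID1. TATAAA begins at -238 and -30 in FAM46A, at -31 in GADD45B and at -31 in ID1, counted from the start. These 3 were picked from 11 members (14.1% of the 78 that matched a RefSeq window) with TATAAA on either strand. On both strands, it was held by 5.42% of the windows of genes tested and 11.95% of all 27305 RefSeq windows of this length. Only 78 of the 100 members and 79.4% of the genes tested matched a window. This was judged too few for a comparison of motifs between members and other genes, so the shares are a description and no conclusion is drawn.
FAM46A: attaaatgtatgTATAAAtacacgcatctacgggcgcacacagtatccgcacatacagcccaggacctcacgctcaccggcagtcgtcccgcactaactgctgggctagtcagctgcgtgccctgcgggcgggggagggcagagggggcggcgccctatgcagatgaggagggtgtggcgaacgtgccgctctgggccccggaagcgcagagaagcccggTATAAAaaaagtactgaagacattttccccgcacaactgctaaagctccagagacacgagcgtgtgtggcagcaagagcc
GADD45B: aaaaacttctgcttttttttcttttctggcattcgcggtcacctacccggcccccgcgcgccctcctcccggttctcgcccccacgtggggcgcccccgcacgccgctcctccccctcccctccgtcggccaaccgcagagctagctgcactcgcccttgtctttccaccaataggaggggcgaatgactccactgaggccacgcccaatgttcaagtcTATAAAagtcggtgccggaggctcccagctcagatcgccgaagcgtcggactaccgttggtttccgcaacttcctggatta
ID1: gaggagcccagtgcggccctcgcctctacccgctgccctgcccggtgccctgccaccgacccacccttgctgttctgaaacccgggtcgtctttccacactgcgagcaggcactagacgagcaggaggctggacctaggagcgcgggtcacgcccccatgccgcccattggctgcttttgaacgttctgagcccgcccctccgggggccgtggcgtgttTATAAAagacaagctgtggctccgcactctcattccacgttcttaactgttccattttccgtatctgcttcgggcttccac

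Both splicing members stood among the strongest heat responses. CLK1, a kinase that phosphorylates SR splicing factors, was at 23.1, 25.5 and 24.3 CPM in Ctrl siLonp1, at 202, 174 and 197 in HS and at 103, 105 and 73.3 in HS+REC. With scramble it was at 29.0, 29.9 and 30.9, then 165, 165 and 175, then 87.8, 119 and 104 CPM. In both arms every HS+REC library lay between the Ctrl and the HS libraries, well above Ctrl. The log2 changes in siLonp1 were 3.02 (SE 0.12, adjusted p = 8.45e-16, edgeR) and -0.99 (SE 0.11, adjusted p = 1.21e-07), and HS+REC stayed 2.03 above Ctrl (SE 0.12, adjusted p = 7.77e-13). RSRP1, an arginine and serine rich nuclear protein, was at 11.99, 11.9 and 13.4 CPM in Ctrl siLonp1, at 76.7, 74.9 and 74.6 in HS and at 20.9, 18.4 and 16.6 in HS+REC, with log2 changes of 2.65 (SE 0.09, adjusted p = 2.48e-17, edgeR) and -1.98 (SE 0.08, adjusted p = 1.03e-14). In scramble its HS libraries were at 69.0, 76.1 and 80.4 and its HS+REC libraries at 28.0, 31.2 and 31.6 CPM. HS+REC/HS was 0.403 in scramble and 0.247 in siLonp1. RSRP1 overlaps RHD on the opposite strand.

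**Figure D3:**
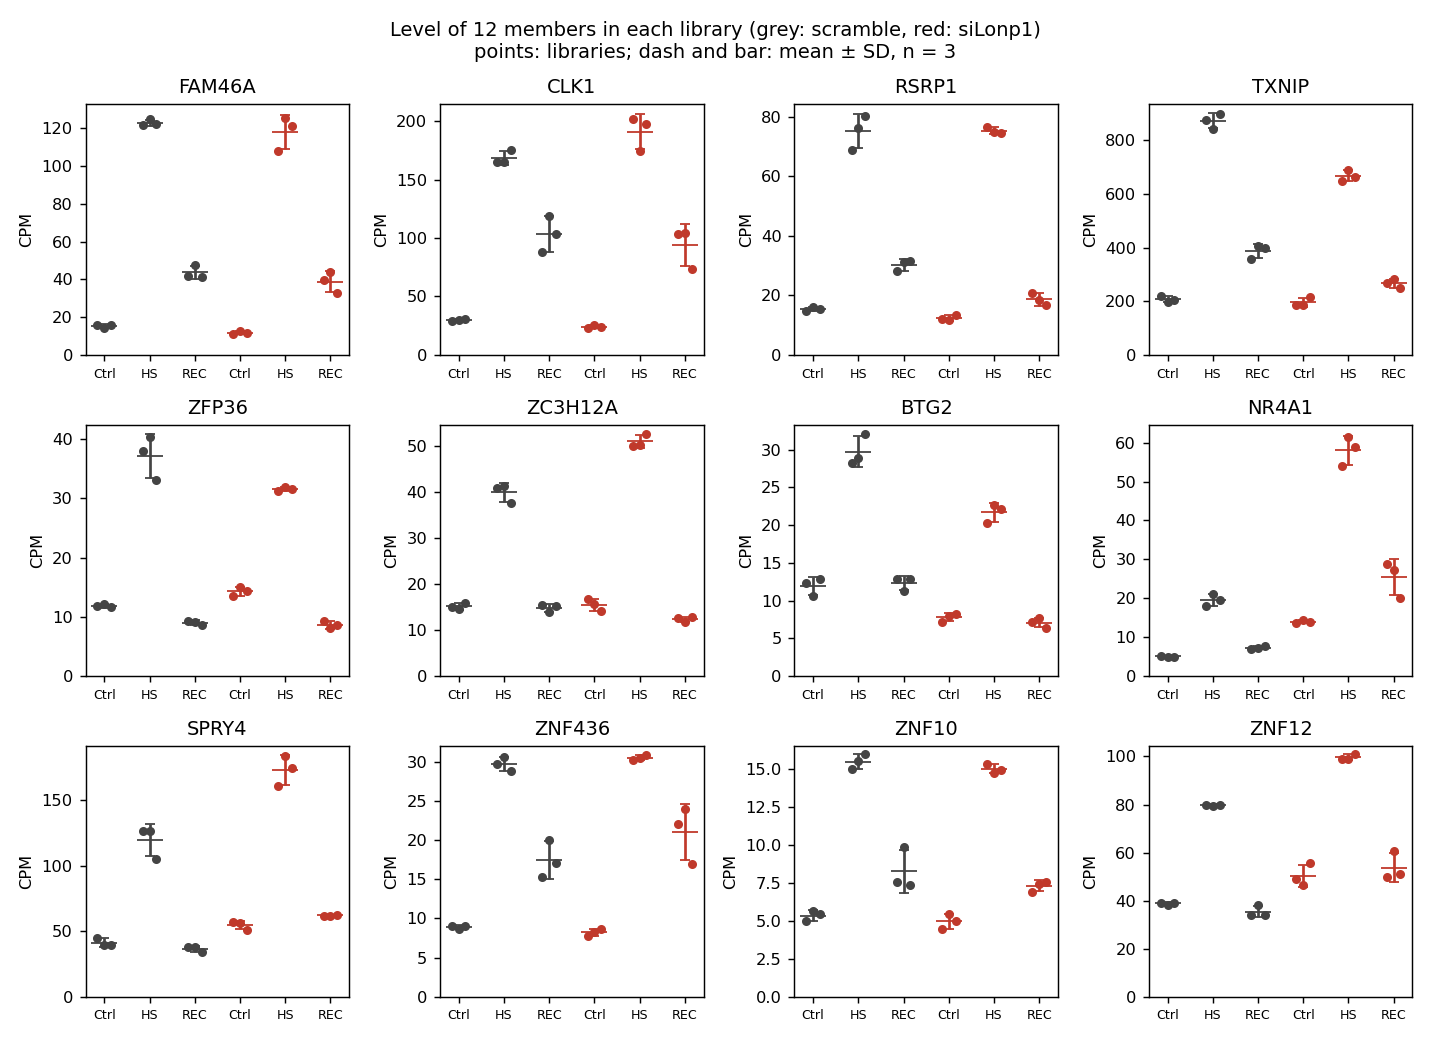
CPM of 12 members in each library (y axes from 0), with Ctrl, HS and HS+REC (marked REC) for scramble in grey and siLonp1 in red. Points are libraries, and dashes with bars are mean ± SD, n = 3. In each panel the HS libraries of an arm stand above its Ctrl and HS+REC libraries. ZFP36 ends under Ctrl in HS+REC, whereas FAM46A, CLK1 and ZNF436 end above it, and NR4A1 is higher throughout in siLonp1.

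Of the 16 signalling and stress members, 15 were raised by HS in siLonp1 (8 by more than 2-fold) and 15 were lowered in HS+REC against HS (6 by more than 2-fold). Of all 100 members, 98 were raised (56 by more than 2-fold) and 97 lowered (34 by more than 2-fold). The shares over all genes were 20.2% (3.42%) and 15.6% (0.74%). Against Ctrl, 9 were higher in HS+REC, 4 lower and 3 neither. TXNIP, which binds thioredoxin and limits glucose uptake, was at 185, 188 and 216 CPM in Ctrl siLonp1, at 649, 689.6 and 663 in HS and at 268, 282 and 251 in HS+REC. The scramble libraries were at 220.4, 199 and 206, then 875, 843 and 899, then 358, 405 and 398 CPM. The HS and HS+REC libraries of siLonp1 lay under all those of scramble, while the Ctrl libraries overlapped. The siLonp1 log2 changes were 1.81 (SE 0.07, adjusted p = 5.42e-16, edgeR), -1.29 (SE 0.07, adjusted p = 8.65e-13) and, against Ctrl, 0.52 (SE 0.07, adjusted p = 6.95e-07).

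GADD45B and GADD45A, stress sensors that act on MAP kinases, the cell cycle and DNA repair, were both raised and remained above Ctrl. GADD45B was at 81.4, 78.8 and 73.7 CPM in Ctrl siLonp1, at 207, 215 and 204 in HS and at 125, 109 and 110.1 in HS+REC. Its log2 changes were 1.47 (SE 0.07, adjusted p = 5.14e-14, edgeR) and -0.83 (SE 0.07, adjusted p = 1.78e-09). GADD45A was at 48.8, 55.3 and 56.7, then 107, 104 and 99.6, then 79.7, 71.6 and 60.2 CPM, with log2 changes of 1.00 and -0.52 (SE 0.09 for both). No Ctrl library of either gene reached an HS+REC library in siLonp1.

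Feedback inhibitors among the members were SPRY4, which restrains receptor tyrosine kinase signalling, and SOCS3, which restrains cytokine signalling through JAK and STAT. SPRY4 was at 57.1, 56.2 and 50.8 CPM in Ctrl siLonp1, at 161, 183 and 174 in HS and at 61.4, 61.9 and 62.7 in HS+REC, with log2 changes of 1.71 (SE 0.08, adjusted p = 1.41e-14, edgeR) and -1.45 (SE 0.08, adjusted p = 7.66e-13). In scramble it was at 45.0, 39.2 and 39.6, then 127, 127 and 105, then 38.3, 37.9 and 34.2 CPM. SOCS3 differed between the arms. It was at 3.78, 4.29 and 3.50 CPM in Ctrl scramble, at 7.79, 9.68 and 8.99 in HS and at 2.72, 2.52 and 3.34 in HS+REC. With siLonp1 it was at 16.8, 12.3 and 13.2 CPM in Ctrl, at 13.3, 17.5 and 14.96 in HS and at 6.55, 6.60 and 7.05 in HS+REC. Each siLonp1 library lay above each scramble library of the same condition, and Ctrl and HS overlapped in siLonp1. SOCS3 did not pass the test for HS in siLonp1 (log2 change 0.16, SE 0.12, adjusted p = 0.287, edgeR). Without Ctrl siLonp1 replicate 1, the highest of its group, it did (0.31, adjusted p = 0.0397). From HS to HS+REC it fell by 1.15 (SE 0.12, adjusted p = 9.19e-08), and HS+REC was under Ctrl by -0.99 (SE 0.12, adjusted p = 4.22e-07), the lowest of the members.

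TIPARP, an ADP-ribosyltransferase that represses the aryl hydrocarbon receptor, ended under its Ctrl level in both arms. It was at 93.5, 91.6 and 101 CPM in Ctrl siLonp1, at 126, 135 and 133 in HS and at 44.3, 52.0 and 51.1 in HS+REC. The scramble libraries were at 79.6, 76.4 and 77.3, then 143, 139 and 141, then 41.1, 44.2 and 37.7 CPM. HS libraries were the highest and HS+REC libraries the lowest in both arms, without overlap. The siLonp1 log2 changes were 0.51 (SE 0.06, adjusted p = 4.49e-07, edgeR) and -1.39 (SE 0.06, adjusted p = 1.15e-13), and HS+REC was -0.88 from Ctrl (adjusted p = 7.09e-11). FGF9, a secreted growth factor, had the same order, with 9.42, 9.66 and 9.53 CPM in Ctrl siLonp1, 11.8, 13.6 and 11.9 in HS and 3.89, 5.24 and 6.29 in HS+REC (log2 changes of 0.43 and -1.25, adjusted p = 0.00459 and 2.91e-08, edgeR). CXCL3, a chemokine, changed by 0.55 and -0.39 on the log2 scale (adjusted p = 7.26e-05 and 0.00339).

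Other members of this group carried their own marks. LAG3, a surface protein known as an inhibitory receptor of T cells, was found in libraries where CD3E and PTPRC had means below 0.1 CPM. It was at 1.14, 1.11 and 1.39 CPM in Ctrl siLonp1, at 4.81, 8.39 and 7.62 in HS and at 5.60, 5.39 and 4.38 in HS+REC. HS and HS+REC overlapped in siLonp1, unlike scramble (4.83, 6.13 and 4.67 against 2.14, 2.52 and 2.54 CPM). Its log2 change by HS was 2.56 (SE 0.20, adjusted p = 3.26e-10, edgeR), and from HS to HS+REC it did not pass (-0.40, SE 0.16, adjusted p = 0.0635). Without HS siLonp1 replicate 1 the latter was -0.61 (adjusted p = 0.00239), and without HS+REC siLonp1 replicate 1 it was -0.50 (adjusted p = 0.0473). It also passed with all libraries kept, with library size only (-0.44, adjusted p = 0.0450) and with no filter on low counts (-0.43, adjusted p = 0.00643). MYLIP, an E3 ubiquitin ligase, had log2 changes of 1.97 and -1.08 (adjusted p = 7.77e-13 and 1.19e-08, edgeR). DLL4, a Notch ligand, and FRS2, an adaptor of FGF receptors, were raised by 1.54 and 1.43.

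Of the 21 other members of transcription and chromatin, 20 were raised by HS in siLonp1 and 20 lowered in HS+REC against HS, 12 by more than 2-fold in each comparison. Over all 100 members these counts were 98 and 97, with 56 and 34 by more than 2-fold. The shares over all genes were 20.2% and 15.6%, with 3.42% and 0.74% by more than 2-fold. NR4A1, an orphan nuclear receptor and immediate early gene, was at 5.24, 4.89 and 4.92 CPM in Ctrl scramble, at 17.95, 21.2 and 19.6 in HS and at 6.95, 7.18 and 7.76 in HS+REC. With siLonp1 it was at 13.6, 14.4 and 13.98, then 54.0, 61.4 and 58.9, then 28.8, 27.2 and 20.2 CPM. All siLonp1 libraries were above all scramble libraries of their condition, whereas HS/Ctrl was 3.90 in scramble and 4.16 in siLonp1. The log2 changes in siLonp1 were 2.10 (SE 0.10, adjusted p = 5.14e-14, edgeR), -1.16 (SE 0.10, adjusted p = 1.65e-09) and, against Ctrl, 0.94 (SE 0.10, adjusted p = 4.15e-08). SIX4, a homeobox factor, was at 10.6, 10.5 and 11.1 CPM in Ctrl siLonp1, at 45.6, 51.2 and 49.8 in HS and at 18.1, 20.4 and 18.4 in HS+REC, with log2 changes of 2.24 and -1.33 (adjusted p = 5.49e-17 and 1.26e-12, edgeR).

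ID1, a helix-loop-helix protein that blocks DNA binding of its partners and a target of BMP signalling, was at 26.9, 29.8 and 32.2 CPM in Ctrl siLonp1, at 67.2, 59.1 and 63.0 in HS and at 27.8, 22.3 and 26.9 in HS+REC. In scramble its HS libraries were at 90.1, 99.3 and 97.1 CPM, all above those of siLonp1. Its log2 changes in siLonp1 were 1.14 and -1.27 (SE 0.10 for both, adjusted p = 1.32e-09 and 5.89e-10, edgeR). SERTAD3, a coregulator of transcription, was at 8.84, 9.16 and 8.21, then 17.8, 18.3 and 16.6, then 5.997, 5.53 and 5.43 CPM in siLonp1, so that HS+REC lay under every Ctrl library (log2 difference -0.55, SE 0.10, adjusted p = 7.24e-05, edgeR). PROX1, a homeobox factor, was at 75.2, 79.7 and 71.7 CPM in Ctrl siLonp1, at 88.9, 132 and 127 in HS and at 57.3, 73.1 and 57.7 in HS+REC, with log2 changes of 0.66 and -0.85 (SE 0.12 for both, adjusted p = 6.56e-05 and 4.26e-06). BCL3, a nuclear IκB protein, had log2 changes of 1.41 and -1.27 (adjusted p = 7.63e-09 and 5.57e-08).

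GLI3, a factor of the Hedgehog pathway, did not pass the test for HS in siLonp1. It was at 1.92, 2.40 and 1.49 CPM in Ctrl siLonp1, at 2.18, 2.52 and 3.03 in HS and at 1.31, 1.33 and 1.37 in HS+REC, and Ctrl and HS overlapped. Its log2 change by HS was 0.46 (SE 0.19, adjusted p = 0.0546, edgeR). It passed without Ctrl siLonp1 replicate 2 (0.64, adjusted p = 0.0178) or HS siLonp1 replicate 1 (0.56, adjusted p = 0.0321), and also with all libraries kept, with DESeq2 (0.46, adjusted p = 0.0436), with no filter on low counts (0.46, adjusted p = 0.0216), with 1 CPM passed in all 18 libraries (0.48, adjusted p = 0.0453) and in a fit of the siLonp1 libraries alone (0.47, adjusted p = 0.0376).

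Zinc finger symbols made up 35% of the members and 3.74% of all genes tested (480 genes). These genes encode DNA binding proteins, many of them repressors with a KRAB domain. All 35 were raised by HS in siLonp1 (18 by more than 2-fold) and 34 were lowered in HS+REC against HS (5 by more than 2-fold), with medians of 1.01 and -0.77 on the log2 scale. Against Ctrl, 15 were higher in HS+REC, 2 lower (ZNF84 and ZNF267) and 18 neither. The family was noticed among members, so these counts are a description. Of the 445 zinc finger symbols that were tested and were not members, HS raised 199 in siLonp1 (44.7%, against 20.2% of all genes) and lowered 67. HS+REC lowered 155 of them against HS (34.8%, against 15.6% of all genes) and raised 51, and 101 did both (22.7%, against 5.84%). Their median log2 changes were 0.19 and -0.10.

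**Figure D4:**
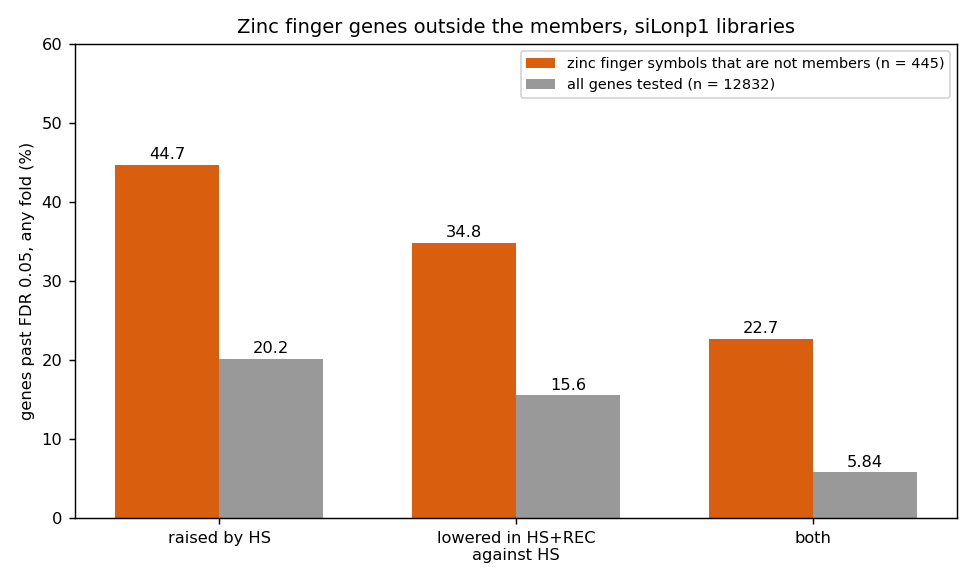
Percent of genes past an FDR of 0.05 at any fold in siLonp1, for the 445 zinc finger symbols outside the members and for all 12832 genes tested. Bars are single percentages without error bars. The zinc finger bars stand at 44.7, 34.8 and 22.7, and those of all genes at 20.2, 15.6 and 5.84.

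ZNF436 had the largest rise of the zinc finger members. It was at 7.80, 8.22 and 8.70 CPM in Ctrl siLonp1, at 30.2, 30.5 and 30.9 in HS and at 22.1, 24.0 and 17.0 in HS+REC. In scramble it was at 8.99, 8.64 and 9.05, then 29.7, 30.6 and 28.8, then 15.3, 20.03 and 17.1 CPM. The HS libraries of both arms nearly coincided and the HS+REC libraries kept well above Ctrl (log2 changes in siLonp1 of 1.94, SE 0.11, adjusted p = 6.81e-13, and -0.50, SE 0.10, adjusted p = 0.000265, edgeR). ZNF10, a KRAB repressor, was at 4.47, 5.47 and 4.97, then 15.3, 14.7 and 14.9, then 6.89, 7.42 and 7.56 CPM in siLonp1, with log2 changes of 1.64 and -1.01 (SE 0.10 for both, adjusted p = 5.39e-12 and 1.64e-08, edgeR). ZNF235 showed the deepest fall of the family, from 14.4, 15.04 and 14.5 CPM in HS siLonp1 to 4.89, 5.41 and 4.63 in HS+REC, against 6.01, 5.87 and 5.74 in Ctrl (log2 change from HS -1.53, SE 0.08, adjusted p = 7.6e-13). ZNF721 had log2 changes of 1.24 and -0.88, and ZNF12 of 1.04 and -0.86.

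ZNF516 was the only zinc finger member that was not lowered in siLonp1. It was at 6.09, 6.74 and 6.98 CPM in Ctrl siLonp1, at 10.7, 14 and 14 in HS and at 12.1, 14.1 and 11.6 in HS+REC, and HS and HS+REC overlapped (log2 change -0.01, SE 0.11, adjusted p = 0.980, edgeR). In scramble it was at 12.8, 15.5 and 13.3 CPM in HS and at 9.02, 7.79 and 9.33 in HS+REC. ZNF267 lay at the other end, with 16.7, 16.1 and 18.8 CPM in Ctrl siLonp1, 21.7, 22.5 and 22.2 in HS and 11.99, 11.1 and 12.4 in HS+REC, under every Ctrl library (log2 difference -0.46, SE 0.08, adjusted p = 2.15e-05, edgeR). ZNF84 was at 25.3, 26.8 and 30.8, then 49.6, 48.9 and 55.0, then 17.7, 18.4 and 21.9 CPM (HS+REC against Ctrl -0.44, SE 0.09, adjusted p = 0.000243). ZNF503 passed in recovery at -0.44 (adjusted p = 0.00689), and at -0.33 (adjusted p = 0.0593) it did not without HS+REC siLonp1 replicate 3.

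Counts over the snoRNA members moved apart from those of their host gene in recovery. SNORD14D was at 0.758, 0.743 and 0.695 CPM in Ctrl siLonp1, at 2.35, 3.82 and 3.25 in HS and at 1.20, 0.653 and 0.710 in HS+REC, and SNORD14C at 1.06, 0.669 and 0.695, then 2.40, 3.57 and 3.67, then 0.911, 1.26 and 0.808 CPM. In scramble, HS libraries were at 7.20, 7.63 and 5.03 CPM for SNORD14D and at 4.80, 5.46 and 5.00 for SNORD14C, all above those of siLonp1. The siLonp1 log2 changes were 2.14 (SE 0.25, adjusted p = 2.42e-07, edgeR) and -1.83 (SE 0.24, adjusted p = 2.22e-06) for SNORD14D, and 2.03 (SE 0.21, adjusted p = 2.62e-08) and -1.66 (SE 0.20, adjusted p = 4.8e-07) for SNORD14C. HSPA8 was at 3252, 3419 and 3376 CPM in Ctrl siLonp1, at 9223, 8283 and 8692 in HS and at 11731, 11325 and 10155 in HS+REC, and it rose from HS to HS+REC by 0.37 (log2, SE 0.07, adjusted p = 0.000275, edgeR). SNORD14E, which is no member, was at 0.429, 0.347 and 0.335, then 1.21, 1.61 and 1.88, then 0.333, 0.266 and 0.465 CPM in siLonp1. Per the methods of the study, the libraries were made with a kit for mRNA, and whether they held mature snoRNA was not tested. SNORD14C and SNORD14D lie within HSPA8 on its strand, so their counts may be reads of unspliced HSPA8 RNA. The values are therefore counts over these genes and no measure of snoRNA levels. SNORD14C and SNORD14D may also share reads with each other.

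**Figure D5:**
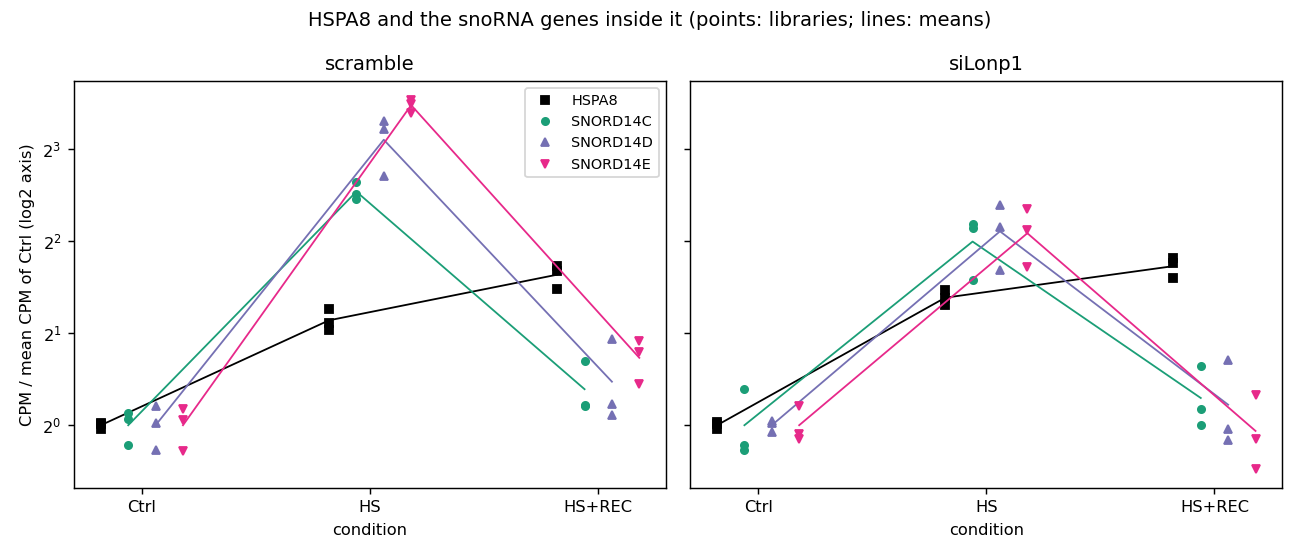
CPM of HSPA8 and of 3 snoRNA genes within it, relative to the Ctrl mean of the same siRNA (log2 axis), for each library (points) with group means (lines), in scramble (left) and siLonp1 (right). Counts over the snoRNA genes are highest in HS and return towards 1 in HS+REC, while HSPA8 is highest in HS+REC in both arms. SNORD14E is not a member.

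BTN2A3P, named as a butyrophilin pseudogene but listed as lncRNA in GENCODE, was at 1.16, 1.21 and 1.49 CPM in Ctrl siLonp1, at 5.48, 6.22 and 7.65 in HS and at 3.18, 3.53 and 2.99 in HS+REC, and reads of its coding relatives may be shared with it. Its log2 changes were 2.37 (SE 0.15, adjusted p = 4.72e-12, edgeR) and -0.97 (SE 0.13, adjusted p = 1.74e-06). Of the 13 remaining members, all were raised by HS and all lowered in recovery in siLonp1, 5 and 1 by more than 2-fold. So were 98 and 97 of all 100 members, 56 and 34 by more than 2-fold. The shares over all genes were 20.2% and 15.6%, with 3.42% and 0.74% by more than 2-fold. KCNJ2, an inward rectifier potassium channel, was at 3.96, 3.80 and 3.63 CPM in Ctrl scramble and at 1.39, 1.04 and 1.31 in Ctrl siLonp1. After HS it was at 10.8, 9.89 and 10.3 with scramble and at 5.35, 5.74 and 5.38 with siLonp1, and after HS+REC at 5.70, 6.32 and 5.67 and at 3.64, 3.72 and 2.84 CPM. Every siLonp1 library was under the scramble libraries of its condition. Its log2 changes in siLonp1 were 2.18 (SE 0.13, adjusted p = 3.78e-12, edgeR), -0.66 (SE 0.11, adjusted p = 6.43e-05) and 1.53 against Ctrl (SE 0.14, adjusted p = 2.93e-09). PARD6B, a cell polarity protein, stayed 1.17 above Ctrl (adjusted p = 8.3e-10).

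JMY, an actin nucleator and p53 cofactor, was close to the limit in recovery (-0.30, adjusted p = 0.0409, edgeR). Without HS siLonp1 replicate 2 or 3, or HS+REC siLonp1 replicate 1 or 3, its adjusted p was 0.172, 0.180, 0.165 and 0.0986.

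Across the members, the same limits applied to siLonp1 group means would have chosen 94 genes, of which 54 were members (54% of the members and 57.4% of the siLonp1 list). Of all genes, 0.355% met these limits in siLonp1, and of genes with an HS mean of at least 5 CPM there, 0.907%. In siLonp1, 93 members had an HS mean of at least 5 CPM, 71 had HS/Ctrl of at least 1.7 and 78 had HS+REC/HS of at most 0.67. The medians of both ratios were 2.04 and 0.542 in siLonp1. HS/Ctrl was larger in siLonp1 than in scramble for 43 members, and HS+REC/HS was lower for 37. These are values side by side with no test, since the scramble libraries chose the members.

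Differences in level between the arms, already present at 37 °C, were not particular to the members. In Ctrl, every siLonp1 library was above every scramble library in 29 members (25.6% of all genes) and below in 23 (38.1%). In HS the counts were 24 above (22.3%) and 35 below (40.7%), and in HS+REC 27 above (20%) and 22 below (33.3%). The log2 difference of siLonp1 from scramble in Ctrl was 1.94 for SOCS3 and 1.55 for NR4A1 on the high side, and -1.53 for KCNJ2 on the low side, given here with no test.

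Genes of related function were counted in lists written by hand, beside the shares over all genes (20.2% raised and 22.1% lowered by HS, then 16.3% raised and 15.6% lowered in HS+REC against HS). Of 39 genes listed as heat-inducible, of which 0 were members, HS raised 28 and lowered 1 in siLonp1, and HS+REC against HS raised 24 and lowered 5. Among 56 genes listed as immediate early and tested, 7 were members (NR4A1, ZFP36, GADD45A, GADD45B, BTG2, ID1 and TXNIP). HS raised 31 of the 56 and lowered 5, with 18 raised and 16 lowered in HS+REC against HS. Of 43 feedback inhibitors (5 members), 23 were raised and 6 lowered by HS, then 12 raised and 17 lowered, with medians of 0.27 and -0.13 on the log2 scale. Of 33 genes of mRNA decay and deadenylation (5 members), 10 were raised and 7 lowered, then 5 raised and 10 lowered, and their median change by HS was -0.01. Of 38 splicing and speckle genes (2 members), 17 were raised and 11 lowered, then 11 raised and 10 lowered. Of 26 cytokines and secreted factors (CXCL3 a member), 16 were raised and 5 lowered, then 14 raised and 7 lowered. Of 19 early BMP and TGF-β genes (2 members, ID1 among them), 9 were raised and 7 lowered, then 6 and 6. All counts are at an FDR of at most 0.05 at any fold (edgeR), and members are among them. HSPBP1, in the heat-inducible list, has a symbol that the rule left out and could not be a member. The same holds in every list for any symbol starting with FOS, JUN, EGR, IER, KLF, DUSP or the other letters left out. The numbers of members in the lists are therefore not out of all listed genes that could meet the limits.

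Gene features that the rule did not use were compared. All 100 matched GENCODE, of which 96 were protein coding, and the features are described for those against 11909 coding genes tested. Their median exon number was 5, against 9, and 19.8% had at most 2 exons, against 6.14%. The median 3′UTR was 1850.5 bases long, against 1328. The 459 coding zinc finger symbols tested, members included, had medians of 5 exons and a 3′UTR of 1839 bases, close to those of the members, and the 61 coding members outside this family had 5 exons and 1643 bases. The pentamer ATTTA occurred 2.96 times per kb of 3′UTR at the median, against 1.75, and at least once in 87.5% of members, against 72.8%. The nonamer TTATTTATT was found in the 3′UTR of 23 members (24.0%), against 9.44% of all, and in 9 of the 35 zinc finger members (25.7%), against 13.5% of the 459 coding zinc finger symbols tested. Each nonamer also holds a pentamer, the letters were searched on the transcript strand, and a match is no evidence of a working site.

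Chromosome 19, where zinc finger genes form clusters, held 22 members (22.9% of the coding ones), against 7.15% of all coding genes tested. Of the zinc finger members, 15 (42.9%) were on this chromosome, against 39.7% of the zinc finger symbols tested, and of the other coding members 7 (11.5%). In the annotation, 24 members overlapped a protein-coding gene, 10 on the same strand and 14 on the opposite strand. Libraries were stranded, but the strand setting of the counting is not given in the sources used here, so for these members, RSRP1, NOCT, ZNF235 and ZNF10 among them, reads of the neighbour may be included. Where zinc finger genes are close copies, reads could also be split between them.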

How the data were processed

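RNAseq of SW620 cells was analysed in 18 libraries (6 groups of 3). Per the labels and the methods of the study, the authors made stranded mRNA libraries, aligned reads to hg38 with STAR 2.7.3a and counted UCSC genes with featureCounts (R 3.6.3). The deposited values are raw counts per gene symbol, without normalization. The annotation release, strand setting and handling of shared reads are not given in the sources used here, and PCR duplicates were not stated to be removed, so counting error is a lower limit.

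CPM used column sums. The 12832 genes that passed 1 CPM in 3 or more libraries were tested with edgeR 4.0.16 (R 4.3.3) by the quasi-likelihood test, with TMM factors (0.934 to 1.06), 1 model over 18 libraries, a prior count of 0.125, and Benjamini-Hochberg adjustment over all genes. The common biological coefficient of variation was 0.0658. Fold changes are therefore on TMM-scaled counts, and can differ slightly from ratios of CPM. The fit was tested on simulated data. Contrasts were HS against Ctrl, HS+REC against HS and HS+REC against Ctrl in siLonp1. Replicates of a group differed by more than counting error (chi-square per degree of freedom 3.62 to 27.5), so each counts as 1 sample.

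Members and lists were chosen with earlier results of these data known, and the functional groups and the zinc finger family after the members were seen. Genes were named by rule: LONP1, the 8 members with the highest scramble HS level, HS/Ctrl and lowest HS+REC/HS, those nearest the limits, members of the hand-written lists, the 10 members with the highest adjusted p among those not called at FDR 0.05 and 2-fold, for HS against Ctrl and for HS+REC against HS in siLonp1, and the 5 highest and 5 lowest for HS+REC/Ctrl in siLonp1. A further 18 were named after their values were seen: BCL3, DLL4, FAM46C, FOXA3, FRS2, MYLIP, NOCT, NUAK2, PARD6B, SIX4, ZBTB6, ZNF10, ZNF12, ZNF84, ZNF235, ZNF461, ZNF566 and ZNF721. HSPA8 and SNORD14E, which are no members, were also named after their values were seen, as the host gene and a neighbour of the snoRNA members.

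Alternatives were RLE factors, library size only, other filters, DESeq2 1.42.0, siLonp1 libraries alone, the replicate number as a block, FDR 0.01, other fold limits, and each library left out in turn. Gene features came from GENCODE and RefSeq (hg38). Results of 3 members are not reported here, and the members stay in all counts.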

Additional observations from a re-analysis of the deposited data

Results flagged for a closer look

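By CPM scaled to column sums and not by TMM, 2 members moved in opposite directions in the arms between Ctrl and HS+REC. In each arm every HS+REC library lay on 1 side of all Ctrl libraries. The difference between arms was not tested. For FOXA3, a forkhead factor, HS+REC/Ctrl by mean CPM was 1.07 in scramble and 0.824 in siLonp1. Its fall in siLonp1 (log2 -0.20, adjusted p = 0.0318, edgeR) did not pass without Ctrl siLonp1 replicate 1 or 3 (adjusted p = 0.0868 and 0.102) or HS+REC siLonp1 replicate 2 or 3 (adjusted p = 0.121 and 0.166), nor with all libraries kept when 1 CPM had to be passed in all 18 libraries (-0.18, adjusted p = 0.0546) or when the siLonp1 libraries were fitted alone (-0.18, adjusted p = 0.0593). For SPRY4 the ratio was 0.892 in scramble and 1.13 in siLonp1 (log2 0.26, adjusted p = 0.00624), and with library size only the siLonp1 value was 0.18 (adjusted p = 0.0525).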

How the results depend on the processing

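Size factors (RLE, library size only), filters, DESeq2, the siLonp1 libraries alone and FDR 0.01 kept the 5 counts of called members within 1.5 times their value. The fold limit moved them: with none, 98 members were raised by HS, 97 lowered in HS+REC against HS and 95 both, and with a limit of 2-fold 8 were above Ctrl in HS+REC and 0 below (edgeR, 14 at any fold). With HS/Ctrl of at least 2 the rule chose 55 members, and with HS+REC/HS of at most 0.5 it chose 47. Leaving out 1 library gave 54 to 61 raised by HS, 32 to 35 lowered in recovery, 24 to 28 both, 39 to 46 above Ctrl and 11 to 15 below, and 97 to 111 members by the rule. The labels name no pairing of samples by replicate number. Of 9 same-number correlations of deviations, 2 were above 0.1, with a median of 0.043. Those between HS and HS+REC siLonp1 were all positive (0.26, 0.090 and 0.12), and whether these replicates were paired was not tested. With the replicate block the counts were 56, 34, 26, 42 above and 14 below.

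Over 67 named genes and 3207 alternative values, 30 lost a call, 28 gained one and 15 changed sign, 0 of them called with the reported settings. The cause was not tested. For HS+REC against Ctrl, library size only gave -0.069 for RNF111 and -0.032 for ZNF566, and no filter on low counts gave -0.0091 for RNF111. Leaving out 1 library gave ranges of -0.10 to 0.022 for BTG2, -0.17 to 0.082 for FAM46C, -0.050 to 0.054 for RNF111, -0.033 to 0.48 for SNORD14D, -0.0055 to 0.14 for ZNF566 and -0.20 to 0.017 for ZNF850, and of -0.12 to 0.060 for ZNF516 in HS+REC against HS. Library size only shifted the median of all genes by -0.048, -0.031 and -0.080 in the 3 comparisons. SNORD14C, SNORD14D and LAG3 have few counts, which limits their precision.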
